A study of Saccharomyces cerevisiae with 2 samples.

Results

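The RNA level of 37 genes of tRNA charging was measured by sequencing in budding yeast, out of 6692 genes in the deposited counts. The rule lists them by systematic name and function and uses no count, although it was drawn up with earlier results of these data known. Of these genes, 22 encode the cytosolic or dual aminoacyl-tRNA synthetases and the cofactor ARC1, and 15 encode the mitochondrial or minor enzymes. All 37 were found in both libraries.

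The data are 2 libraries of captured mRNA, replicates of 1 group, with 34052011 counts in replicate 1 and 35367508 counts in replicate 2. Per the labels, the strain yJL59a was first grown with methionine in synthetic medium, 50 mL to an OD660 of 0.2, and methionine was then depleted. Its genotype label reads MATa with the alleles his3-11,15 and trp1-1 and ura3-1 and can1-100 and ade2-1 and an allele of leu2. The strain carries reporters driven by the MET3 promoter, mCherry at CDC20 with the marker URA3 and GFP at CWC23 with the marker KanMX. With no library grown in methionine, no gene can be called induced or repressed, so each member's level was read beside those of all genes measured with it. The study describes its replicates as biologically independent and taken from separate colonies, and the labels number them 1 and 2.

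Levels are given as FPKM, the count per kb of coding sequence and per 1e+06 counts of the library, computed here from the deposited counts. The median over the 6007 genes with a coding length was 45.9 FPKM. Genes of mating type went against MATa. None of the 5 a-specific genes exceeded the all-gene median, at 4.49 to 12.0 FPKM, whereas all 4 alpha-specific genes did, at 229.9 to 2401 FPKM. MATa is for this reason given only as a label here. All 5 marker genes of methionine depletion lay between 551 and 4776 FPKM.

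An aminoacyl-tRNA synthetase joins an amino acid to its tRNA, and the charged tRNA carries it to the ribosome. Yeast translates in the cytosol and, for the few proteins of the mitochondrial genome, in the mitochondrion, and most amino acids have a separate nuclear gene for each compartment. Class I and class II enzymes have unrelated catalytic folds. Some genes serve both compartments by starting translation at different codons, as HTS1, VAS1, GRS1 and ALA1 do. When tRNAs are left uncharged, the kinase Gcn2 raises translation of Gcn4, the activator of amino acid synthesis genes.

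The cytosolic members stood about 10-fold above the mitochondrial ones. The median was 234 ± 2.35 FPKM for the 22 cytosolic members and 23.2 ± 0.242 FPKM for the 15 mitochondrial or minor members (SD of the replicate medians, n = 2). The ratio of these medians was 10.1, and it was 10.3 in replicate 1 and 10.3 in replicate 2. The groups did not overlap in either library, but their edges nearly met. The lowest cytosolic gene was GLN4 (YOR168W), the glutaminyl enzyme, at 77.9 and 68.7 FPKM in replicates 1 and 2, and the highest mitochondrial gene was SLM5 (YCR024C), the asparaginyl enzyme, at 64.9 and 67.1 FPKM.

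All 22 cytosolic members and 2 of 15 mitochondrial or minor members lay above the all-gene median, which 50.0% of all genes exceed. Of the cytosolic members 21 lay above 111 FPKM, as 25.0% of all genes did, and 0 of 15 mitochondrial or minor members did. Together the cytosolic members took 1.15% and 1.09% of the counts of replicates 1 and 2, and the mitochondrial or minor members 0.0715% and 0.0732%. The counts behind each member ran from 5904 to 43235 in the cytosolic group and from 662 to 3509 in the other.

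**Figure D1:**
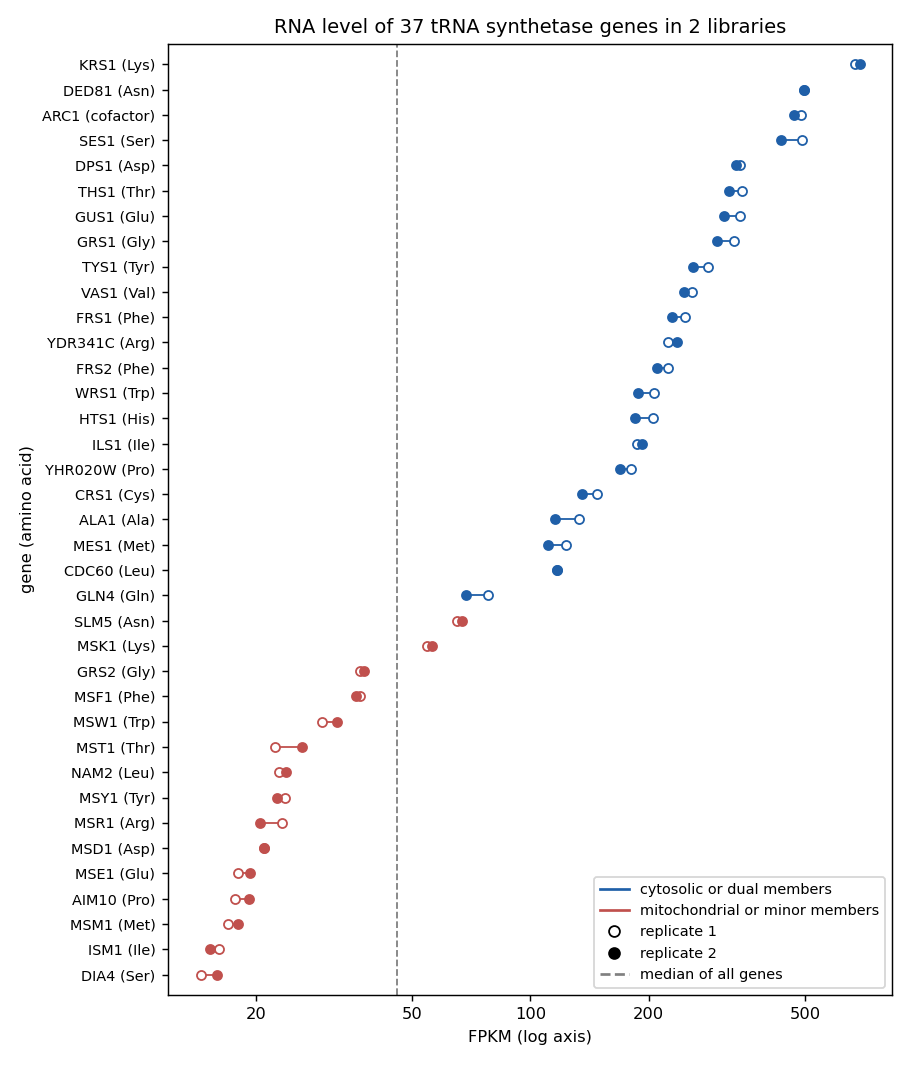
RNA level of each member in FPKM on a log axis, with cytosolic or dual members above and mitochondrial or minor members below. Open circles are replicate 1, filled circles replicate 2, the line joins them, and the dashed line is the median of all genes at 45.9 FPKM. GLN4 is the lowest cytosolic member and SLM5 the highest mitochondrial one.

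Among the cytosolic enzymes levels differed by 9.27-fold. KRS1 (YDR037W), the lysyl enzyme, was highest at 669.8 and 688 FPKM in replicates 1 and 2, which made it the gene of rank 287 among the 6007. DED81, the asparaginyl enzyme, followed at 498 and 498 FPKM. SES1, the seryl enzyme, stood at 492 and 434 FPKM, overlapping with ARC1, the cofactor described below. These 4 were well above the remaining cytosolic members, of which none exceeded 345 FPKM in either library.

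A middle set lay close together. DPS1 (aspartyl) had 341 and 333 FPKM in replicates 1 and 2, and THS1 (threonyl) had 345 and 321 FPKM. GUS1, the glutamyl enzyme, had 341 and 311 FPKM. GRS1, the main glycyl enzyme, had 329.9 and 298 FPKM. The ranges of these 4 overlapped, except those of DPS1 and GRS1. GRS1 was the lowest of the 4 in both libraries and THS1 was above GUS1 in both. TYS1 (tyrosyl) stood at 283 and 259 FPKM, apart from its neighbours. VAS1 (valyl) had 257 and 245 FPKM, and YDR341C, the arginyl enzyme, had 224 and 237 FPKM.

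The phenylalanyl enzyme is made of unlike subunits encoded by FRS1 and FRS2, and their RNA levels were close. FRS1, the beta subunit, stood at 248 and 229 FPKM, and FRS2, the alpha subunit, at 224 and 209.7 FPKM in replicates 1 and 2. The ratio of FRS1 to FRS2 was 1.10 ± 0.0118 (n = 2), so FRS1 was the higher by a small margin in both libraries.

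The lower cytosolic members began with WRS1 (tryptophanyl) at 206 and 188 FPKM and HTS1 (histidyl) at 206 and 185 FPKM in replicates 1 and 2. ILS1 (isoleucyl) had 187 and 192 FPKM, below HTS1 in replicate 1 and above it in replicate 2. YHR020W, the prolyl enzyme, stood at 179.9 and 169 FPKM and CRS1 (cysteinyl) at 148 and 136 FPKM. ALA1 (alanyl), MES1 (methionyl) and CDC60 (leucyl) came next, each at 133 FPKM or less in either library, and GLN4 was last. In the whole order of 37 genes, the ranges of 18 of 36 neighbouring pairs overlapped and 18 did not. Compared within each library, 26 of 36 neighbouring pairs kept their order in both and 10 did not.

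The mitochondrial or minor members spanned 4.34-fold. SLM5 and MSK1, the lysyl enzyme at 54.6 and 56.3 FPKM, were the 2 above the all-gene median. GRS2, a minor copy of the glycyl enzyme, had 36.7 and 37.8 FPKM, and MSF1 (phenylalanyl) had 36.9 and 36.0 FPKM. MSW1 (tryptophanyl) followed at 29.5 and 32.2 FPKM. Below it the members crowded together, with overlapping neighbours in most cases. MST1 (threonyl) had 22.3 and 26.3 FPKM and NAM2, a leucyl enzyme that also takes part in splicing of mitochondrial introns, had 23.0 and 23.8 FPKM. MSY1 (tyrosyl) had 23.7 and 22.6 FPKM, MSR1 (arginyl) 23.3 and 20.4 FPKM, and MSD1 (aspartyl) 21.0 and 21.0 FPKM. MSE1 (glutamyl), AIM10 (assigned to proline), MSM1 (methionyl), ISM1 (isoleucyl) and DIA4 (assigned to serine) closed the list between 15.2 and 18.6 FPKM in the mean. DIA4 (YHR011W) was the lowest of all 37 members, at 14.5 and 15.9 FPKM.

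The methionyl enzymes were compared with the rest because the cells had been depleted of methionine. MES1 (YGR264C) charges both initiator and elongator tRNA of the cytosol and lies on chromosome VII (chrVII:1019598-1021853, minus strand, 1 exon). It stood at 123 and 111 FPKM, or 117 ± 8.64 FPKM (SD, n = 2), on 9445 and 8835 counts in replicates 1 and 2. Against the median of the other 21 cytosolic members its level was 0.490, and 0.496 and 0.468 in replicates 1 and 2. It stood at position 3 from the lowest of the 22 cytosolic members, between CDC60 and ALA1. ALA1, at 133 and 116 FPKM, was above MES1 in both libraries by a small margin, with a ratio of 1.08 and 1.05. CDC60, at 117 and 117 FPKM, was below MES1 in replicate 1 and above it in replicate 2. Without division by length the value was 0.618, still below the median of the others.

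MSM1 (YGR171C), the mitochondrial methionyl enzyme (chrVII:840824-842551, minus strand, 1 exon), stood at 17.0 and 18.0 FPKM in replicates 1 and 2, on 1001 and 1103 counts. Its level was 0.753 of the median of the other 14 mitochondrial or minor members, with 0.736 in replicate 1 and 0.778 in replicate 2. It also stood at position 3 from the lowest, of 15, with AIM10, next above it, at 17.7 and 19.2 FPKM. Both methionyl genes thus lay in the lower part of their groups in both libraries. The sequences around their start codons, with the ATG in capitals, show which annotated reading frames these values belong to.
MES1 (chrVII:1021839-1021865, minus strand): tttacaacaagcATGtctttcctcatt
MSM1 (chrVII:842537-842563, minus strand): tcgaaagaaaacATGcaatgtcgatca

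MES1 works in a complex. Arc1, which binds tRNA, holds the methionyl and the glutamyl enzyme together in the cytosol. The RNA levels of the 3 genes were unequal, with ARC1 (YGL105W) at 489 and 468 FPKM in replicates 1 and 2. ARC1 was 4.10 ± 0.177 times MES1, and GUS1 was 2.79 ± 0.0245 times MES1 (n = 2). ARC1 was 1.47 ± 0.0504 times GUS1. The ratios differed little between libraries, and ARC1, MES1 and GUS1 were each lower in replicate 2.

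For 14 amino acids the list holds a cytosolic and a mitochondrial enzyme, and the cytosolic gene was higher in all 14 pairs in both libraries. The mean of FRS1 and FRS2 stood for phenylalanine, here and in the comparison with codon share below. The median ratio was 11.1 ± 0.431 (n = 2), and the ratios ran from 4.99 to 30.4. The seryl pair had the widest gap, with SES1 over DIA4 at 34.0 in replicate 1 and 27.2 in replicate 2. The leucyl pair, CDC60 over NAM2, had the narrowest at 5.08 and 4.90. Across the 14 amino acids the log2 levels of the cytosolic and the mitochondrial enzyme had a Pearson correlation of 0.50 and a Spearman correlation of 0.33, as a description over points that share the same libraries.

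The methionyl pair lay toward the low end. MES1 over MSM1 was 7.23 in replicate 1 and 6.14 in replicate 2, at position 11 of 14 from the highest. The tryptophanyl pair at 6.99 and 5.84 and the phenylalanyl pair at 6.40 and 6.09 were slightly below it in both libraries, and the asparaginyl pair, DED81 over SLM5, was just above at 7.68 and 7.43. DED81 and SLM5 were at positions 2 and 1 from the highest in their groups, whereas MES1 and MSM1 were each at position 3 from the lowest.

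**Figure D2:**
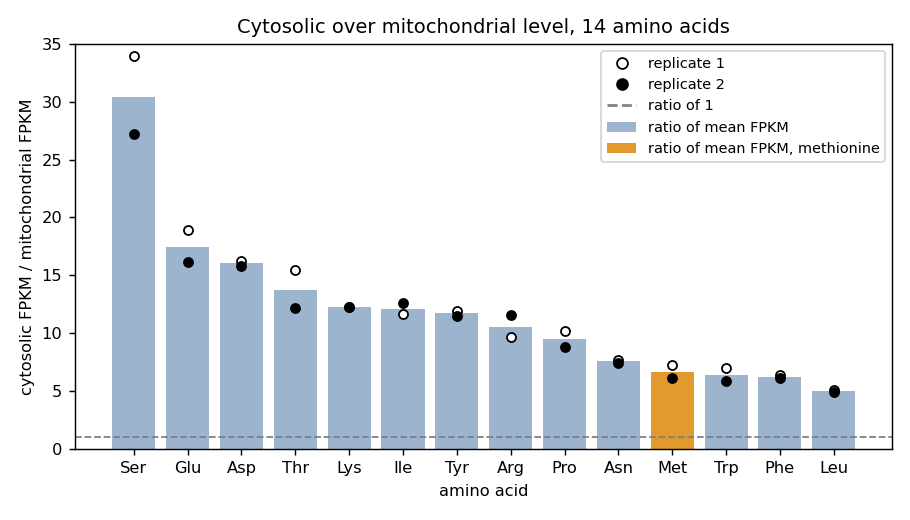
Ratio of cytosolic to mitochondrial FPKM for 14 amino acids. Bars give the ratio of mean FPKM with methionine in orange, open and filled circles give replicates 1 and 2, and the dashed line marks a ratio of 1. Every circle is above the line, from 4.90 for leucine to 34.0 for serine.

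The protein pairs differ in how alike they are. Translated coding sequences were aligned locally, and the leucyl, tryptophanyl, prolyl and tyrosyl pairs, whose alignments covered 39.3% or less of the shorter protein, were not read. YDR341C and MSR1, the arginyl enzymes, shared 61.1% of 574 aligned residues. THS1 and MST1 shared 49.3% of 365, and KRS1 and MSK1 37.9% of 448. MES1 and MSM1 shared 26.2% of 404. For none of the 37 members did a nucleotide alignment elsewhere in the genome reach both 50 bp and 98% identity over its whole length. Shorter stretches within longer, less alike alignments were not searched.

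The glycyl genes are a duplicated pair, of which GRS1 provides both cytosolic and mitochondrial enzyme and GRS2 is dispensable. Their proteins shared 61.5% of 600 aligned residues. GRS1 was 8.98 times GRS2 in replicate 1 and 7.89 times in replicate 2. GRS2 was not at background, with 2323 and 2482 counts in replicates 1 and 2. No gene annotated in the RefSeq R64 genome overlaps GRS2. However, only 55.3% of the GRS2 coding sequence is free of other reading frames of at least 100 codons. The part of these frames in its counts was not tested.

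The 4 genes taken as dual did not stand apart from the other cytosolic synthetases. CRS1 was counted with the others, although the list holds no mitochondrial enzyme for cysteine. The median of the 4 was 223 ± 11.6 FPKM, against 230.4 ± 3.32 FPKM for the 17 others (n = 2). The count of a dual gene holds both of its products, so the share of long and short forms was not measured. The start codons that make the 4 genes dual are shown here in capitals, from the RefSeq R64 genome, as are all sequences printed. In HTS1 and VAS1 the first ATG starts the mitochondrial form and the second, at codon 21 in HTS1 and codon 47 in VAS1, the cytosolic form. In ALA1 and GRS1 the mitochondrial form starts upstream of the annotated ATG, at a pair of ACG codons from codon -25 in ALA1 and at a TTG at codon -23 in GRS1.
HTS1 first start (chrXVI:639005-639031, minus strand): gtctcttgcttaATGcttagtagatca
HTS1 second start (chrXVI:638945-638971, minus strand): tcgataatcaggATGtcatccgctacc
VAS1 first start (chrVII:672174-672200, plus strand): tacttagatggtATGaataagtggtta
VAS1 second start (chrVII:672312-672338, plus strand): aggttctttaaaATGagcgatcttgat
ALA1 upstream start (chrXV:949167-949196, minus strand): atttaagacaagACGACGtcaactaccgga
GRS1 upstream start (chrII:483422-483448, minus strand): tttcaagaaaaaTTGtcgttcttcaat

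The start of the proteins also differed between the groups, though with overlapping ranges. Sequences that target a protein to mitochondria are rich in basic residues and poor in acidic ones. In residues 2 to 31 of the translated coding sequences, 10 of 22 cytosolic members had more lysine and arginine than aspartate and glutamate, against 15 of 15 mitochondrial or minor members and 50.3% of the proteins of 5988 nuclear genes. The median excess was 0 residues in the cytosolic group, 5 in the mitochondrial group and 1 over those proteins. It ran from -5 to 6 residues in the cytosolic group and from 1 to 8 in the mitochondrial or minor group. Among the cytosolic genes CRS1, VAS1, HTS1 and ALA1 had the largest excess, at 6, 5, 4 and 4 residues, and VAS1 and HTS1 are annotated from their first ATG. ILS1 had the lowest value, -5.

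By enzyme class, the cytosolic class II genes were the higher. The median was 314 ± 22.6 FPKM for 11 class II genes and 193 ± 4.46 FPKM for 10 class I genes (n = 2). The classes overlapped widely, since ALA1 of class II had 124 FPKM and GUS1 of class I 326 FPKM in the mean. In mitochondria 7 class II genes without GRS2 had a median of 24.3 ± 2.78 FPKM and 7 class I genes 21.8 ± 1.79 FPKM, a gap within the spread between replicates.

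The need for each synthetase depends on how often its amino acid is used, so the cytosolic levels were set beside the share of codons in the measured RNA. Codons of 5988 nuclear genes were counted and weighted by the FPKM of each gene. Across the 20 amino acids the log2 level and the log2 codon share had a Pearson correlation of 0.37 and a Spearman correlation of 0.33. Without cysteine and tryptophan, the 2 amino acids farthest from the median share, the Pearson value was 0.36. For all 20 amino acids with codons not weighted by level, both values were higher, 0.40 for Pearson and 0.46 for Spearman. The points share libraries and scale, so these are descriptions, and the relation was loose.

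The amino acids at the ends of this comparison were far apart. Tryptophan took 1.00% of codons and WRS1 had 196 ± 13.4 FPKM for each percent, the highest value, followed by CRS1 with 132 ± 8.51 (n = 2). Leucine took 8.53%, the most of all, and CDC60 had 13.7 ± 0.0223 FPKM for each percent, the lowest. ALA1 and GLN4 were next lowest, at 16.0 ± 1.59 and 19.9 ± 1.70. Lysine took 7.64% and KRS1 had 88.9 ± 2.35 FPKM for each percent.

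On this scale MES1 lay near the median of all amino acids. Methionine took 1.94% of codons, start codons included, and MES1 had 60.2 ± 4.48 FPKM for each percent, beside a median of 54.9 over the 20 amino acids, at position 8 from the highest. DPS1 and SES1, at 60.7 ± 1.07 and 59.1 ± 5.38, lay within its spread. Among amino acids of small share it was less high. The enzymes of tryptophan, cysteine, histidine and tyrosine, with shares of 3.23% or less, all stood above MES1, HTS1 at 93.9 and TYS1 at 83.9. GLN4, at the next share of 3.68%, stood below it.

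**Figure D3:**
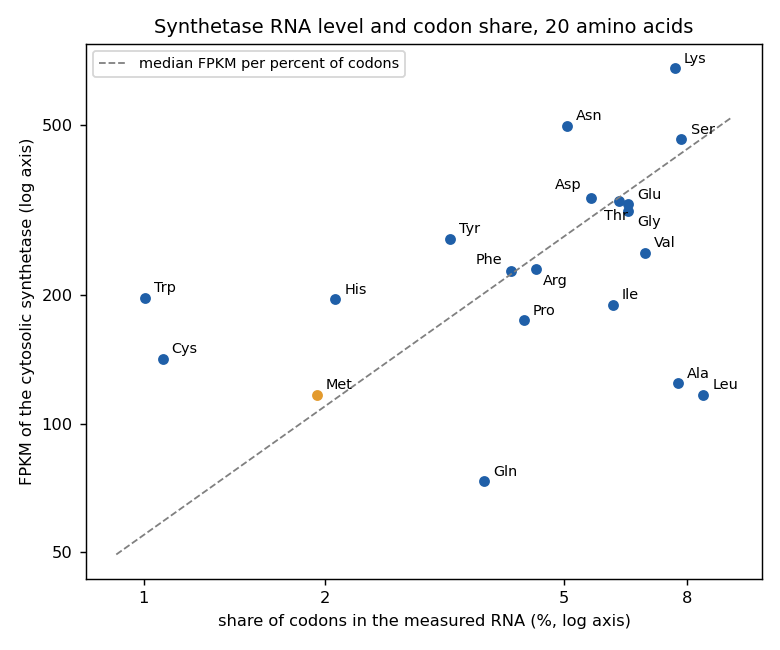
FPKM of the cytosolic synthetase against the share of codons of its amino acid in the measured RNA, both on log axes, for 20 amino acids with methionine in orange. Points are means of the replicates, and the dashed line is the median of 54.9 FPKM for each percent of codons. Trp and Cys lie far above the line, Leu, Ala and Gln far below it, and Met near it.

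Promoters were searched for sites of Gcn4 and of the sulfur regulators, in the 300 bases before each start codon on both strands. The core TGACTC, bound by Gcn4, was found in 10 of 22 cytosolic members and 1 of 15 mitochondrial or minor members, and in 7.77% of 6001 promoters of the genome. The cytosolic genes were ALA1, YDR341C, DED81, CRS1, ILS1, KRS1, YHR020W, THS1, VAS1 and ARC1, and the mitochondrial gene was MSW1. The match in ALA1 ends 41 bases before the annotated ATG and so lies downstream of the ACG start, inside the coding sequence of the mitochondrial form, and the match in ARC1 ends directly at the ATG. The longer form TGACTCA, which contains the core, was found in YDR341C, DED81 and YHR020W and in 2.62% of promoters. MES1 and MSM1 had no TGACTC in this window.

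DED81 and YHR020W are neighbours on chromosome VIII that are transcribed away from each other, with 437 bases between their start codons, and they share a single TGACTCA. DED81 was 2.77 times YHR020W in replicate 1 and 2.94 times in replicate 2. The median level was 241 FPKM for the 10 cytosolic members with the core and 228 FPKM for the 12 without it. That gap is small beside the range within each set. The sites of the highest cytosolic member, of the region between DED81 and YHR020W, of YDR341C and of MSW1 are shown with the match in capitals, each read 5′ to 3′ toward the named gene.
KRS1 (chrIV:525296-525321, plus strand): aatgatgaaaTGACTCttaatgaact
YHR020W and DED81 (chrVIII:143803-143829, plus strand, toward YHR020W): aagcgatgctTGAGTCActgaatgtct
YDR341C (chrIV:1153811-1153837, minus strand): aagtgtctaaTGAGTCAgttatttctt
MSW1 (chrIV:1003734-1003759, plus strand): atgcacatcaGAGTCAgattccttaa

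The motifs of the sulfur regulators were each found in 2 of the 37 members. CACGTG, bound by Cbf1, was found in SES1 and MSW1 and in 3.57% of promoters. CTGTGG, the core bound by Met31 and Met32, was found in MSD1 and NAM2, in 0 of 22 cytosolic members and in 6.85% of promoters. Neither motif was in the window of MES1 or MSM1, which says only that these letters are not there.

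The partners of tRNA charging were mixed, with 8 of 17 above the all-gene median. GCN4 was the highest at 1398 and 1447 FPKM in replicates 1 and 2, above every member. TUF1, the mitochondrial elongation factor that takes up charged tRNA, had 246 and 275 FPKM and stood above each of the 15 mitochondrial or minor members, though not above the dual gene GRS1. Mitochondria of yeast have no glutaminyl synthetase and make the charged tRNA with an amidotransferase. Its subunit genes HER2 and PET112 averaged 19.8 ± 0.302 and 18.6 ± 0.0220 FPKM (SD, n = 2), within the range of the mitochondrial synthetases, while the third, GTF1, stood at 63.0 and 77.5 FPKM. FMT1, which formylates the initiator methionyl-tRNA of mitochondria, was the lowest partner at 5.94 and 5.88 FPKM, below MSM1. The kinase GCN2 was next at 14.3 and 14.7 FPKM, and GCN1 and GCN20, which are needed for its activation, were at 33.0 ± 0.309 and 92.8 ± 4.88 FPKM (SD, n = 2).

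The replicates differed little for the members, but in opposite directions for the groups. On log2(FPKM+1), replicate 2 minus replicate 1, the median was -0.11 over the cytosolic members and 0.05 over the mitochondrial or minor members, beside -0.03 over all genes. Of the cytosolic members 19 of 22 were lower in replicate 2, beside 57.1% of all genes. Of the mitochondrial or minor members 11 of 15 were higher in replicate 2, beside 41.3% of all genes. With library sizes scaled by TMM, 17 of 22 cytosolic members were lower, beside 49.1% of all genes, and 11 of 15 mitochondrial or minor members were higher, beside 49.2%. The TMM medians were -0.08 and 0.08, beside 0 over all genes. On the scale of library totals 0 of 37 members were 25% or more higher in replicate 2, as 4.20% of genes were, and 0 of 37 were 20% or more lower, as 7.52% of genes were. On that scale, among the members, MST1 had the highest difference at 0.22 and ALA1 the lowest at -0.19. With 2 libraries these differences are a description and no test was made.

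**Figure D4:**
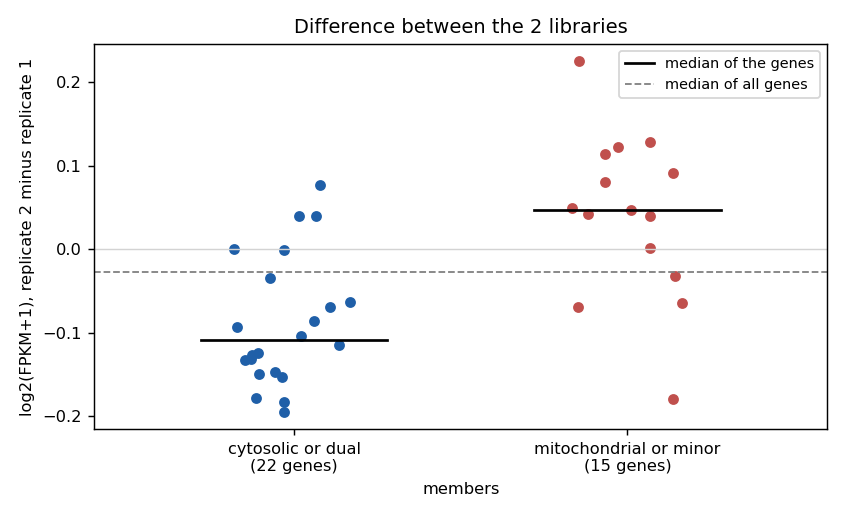
Difference between the libraries for each member, log2(FPKM+1) of replicate 2 minus replicate 1, with cytosolic or dual members on the left and mitochondrial or minor members on the right. Black lines are the group medians of -0.11 and 0.05, and the dashed line is the median of all genes at -0.03. Most cytosolic points lie below 0 and most mitochondrial points above it.

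Features that can change counts varied among the members. All 37 have 1 coding exon. Coding length ran from 1131 to 3315 bp in the cytosolic group, with a median of 1914 bp, and from 1140 to 3009 bp in the mitochondrial group, with a median of 1728 bp. GC content had a median of 40.0% in the cytosolic group and 38.9% in the mitochondrial group. No member overlapped another gene annotated in R64. Counted genes that R64 does not annotate have no position here, so overlap with them was not tested, nor was any loss of reads by it. Reading frames of at least 100 codons overlapped 6 of 22 cytosolic and 5 of 15 mitochondrial or minor members, and 7 members were less than 80% free of them, namely DED81, GUS1, KRS1, MSE1, MSR1, AIM10 and GRS2. Without those 7 members the cytosolic median was 217 FPKM and the mitochondrial median 23.4 FPKM.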

How the data were processed

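Captured mRNA of 2 libraries of 1 group was sequenced in pairs by the authors. Per the labels, counts were made with featureCounts 2.0.3 on the sacCer3 build, here taken as R64. The sources used here do not name the aligner, the annotation version, the strand setting or whether mates were counted singly, so antisense reads cannot be told apart. All deposited values are whole numbers and were read as counts, though named FPKM by the authors. Of 6692 genes, 685 had no coding sequence of the same systematic name in R64 and held 0.281% and 0.292% of counts. They stayed in library totals but have no FPKM. A count of 3, the limit that 0 counts allow, is 0.0881 and 0.0848 FPKM for a coding sequence of 1 kb, and covers counting error only, as reads carry no molecular identifiers.

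Analyses used Python 3.11.15, Biopython 1.88 (local alignment with BLOSUM62, gap opening 11, extension 1) and blastn 2.17.0. Scaling factors came from edgeR 4.0.16 and DESeq2 1.42.0 (R version 4.3.3), and the spread from edgeR. Over 6151 genes with at least 10 counts in both libraries the biological coefficient of variation was 10.3%. These steps were tested on simulated data. With 1 group no p-value was computed. Proteins were translated from the R64 genome of strain S288C, whereas the study's strains derive from another background, w303. The members and lists were chosen with earlier results of these data known. All members are named. Of the 17 partners, the 2 highest, the 2 lowest, the amidotransferase genes, FMT1 and GCN4 are named by rule, and GCN1 and GCN20 were added after their values were seen.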

Additional observations from a re-analysis of the deposited data

How the results depend on the processing

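No paired analysis was possible because there is only 1 group. No alternative turned a direction. Of 60 levels, ratios and differences, 37 moved by less than the spread and 23 by more. The spread was 1 SD between replicates, or between members for the median replicate difference. Some of the 37 had little or no room to move. Scaling of a library largely cancels in ratios taken within it, and the pairs hold none of the genes taken as dual. Either of 2 replicate values lies within 1 SD of their mean. Of 17 counts of members above the all-gene median, 16 were within 1.5 times the main count. Those below the main count were so only where members had been left out. The cytosolic count was already 22 of 22 and could not rise. By library-scaled counts without division by length, the median was 423 for the cytosolic and 41.5 for the mitochondrial or minor members, their ratio 10.2, MES1 over the others 0.618, MSM1 over the others 0.724 and the median of the pairs 10.6, and 4 rather than 2 mitochondrial or minor members lay above the all-gene median. Without the 7 members under 80% free of other reading frames, the cytosolic median was 217 FPKM, the ratio 9.27, MES1 over the others 0.523 and the median of the pairs 11.7. Without ARC1 and GRS2 the medians were 230.4 and 22.5 FPKM and the ratio 10.2. Averaging log2(FPKM+1) or log2(FPKM+0.1) in place of the median gave 25.7 or 25.6 FPKM for the mitochondrial or minor members, a ratio of 9.19 or 9.21, and 0.664 or 0.666 for MSM1. Leaving out each replicate in turn gave 233 to 236 FPKM for the cytosolic and 22.6 to 23.0 FPKM for the mitochondrial or minor median, and 10.3 to 10.3 for their ratio. It gave 0.468 to 0.496 for MES1, 0.736 to 0.778 for MSM1 and 10.9 to 11.5 for the pairs. The small SD of the ratio, 0.0061, is smaller than most of these shifts. With 1 group and 2 libraries, neither a response to methionine depletion nor a difference between libraries could be tested, and RNA levels do not measure protein.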
